A study of Mus musculus with 3 samples.

Results

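Retinoic acid is a signalling molecule made from vitamin A, and 9 genes for its synthesis, binding and breakdown were examined in mouse astrocytes grown from embryonic stem cells. They are Stra6, Rdh10, Aldh1a1, Aldh1a2, Aldh1a3, Crabp1, Crabp2, Cyp26a1 and Cyp26b1, out of 18194 genes in all that had at least 1 probe set naming a single gene. These 9 genes had 12 such probe sets of 34958. A gene's value is that of its brightest probe set by mean log2 signal, and the others are given beside it.

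The study measured RNA on 1-colour Affymetrix Mouse Genome 430 2.0 arrays in 3 samples, which form 1 group and are titled wt for wild type. The cells had passed through embryoid bodies (4 days) and ITSFn selection medium (5 to 7 days) and were then kept as neural precursors in FGF2 and EGF2. At 18 passages from the embryoid body stage both growth factors were withdrawn and 5% fetal bovine serum was added for 5 days. No added retinoid is named in the labels' protocols, and neither the stem cell line nor the number of separate cultures is given. The p-values thus rest on the spread over 3 arrays, part or all of which may be technical, and so small a number limits the precision.

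Vitamin A reaches cells as retinol, and STRA6 is a membrane receptor that takes it up from its carrier in blood. RDH10 oxidises retinol to retinal, and the 3 enzymes encoded by Aldh1a1, Aldh1a2 and Aldh1a3 oxidise retinal to retinoic acid. CRABP1 and CRABP2 bind retinoic acid in the cytoplasm, nuclear receptors of the RAR and RXR families carry its signal to DNA, and the CYP26 enzymes hydroxylate it for removal. In the developing nervous system retinoic acid patterns the hindbrain and spinal cord, and in the brain the meninges and some neurons are known sources of it.

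Response to retinoic acid is often read through a response element, a direct repeat of a short hexamer on which RAR and RXR sit as a pair. The breakdown gene Cyp26a1 and the receptor gene Rarb are textbook targets of this kind. The bases just before their start sites are shown because both hold such a repeat and both genes are described below. Capitals mark 2 hexamers 5 bases apart, and the Cyp26a1 repeat reads on the opposite strand. Sequences are from RefSeq, build GRCm38.p6, at chr19:37697708-37697807 on the plus strand for Cyp26a1 and chr14:16575477-16575576 on the minus strand for Rarb.
Cyp26a1: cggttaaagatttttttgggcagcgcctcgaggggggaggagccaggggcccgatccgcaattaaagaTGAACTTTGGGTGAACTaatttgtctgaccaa
Rarb: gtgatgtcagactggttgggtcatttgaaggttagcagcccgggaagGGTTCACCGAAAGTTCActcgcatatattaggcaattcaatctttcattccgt

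The hexamers searched were AGGTCA itself, AGTTCA (both copies in Cyp26a1), the variant GGGTCA and the variant GGTTCA, on both strands, in windows from 250 bases before to 50 bases after each start site. A pair of them with 5 bases between lay in 32 of 32851 windows (0.0974%). Windows were in the table for 6 of the 9 genes (Aldh1a1, Aldh1a2, Crabp1, Cyp26a1, Cyp26b1 and Stra6), and of these genes 1, Cyp26a1, had such a repeat. It ended 16 bases before the start site, and the Rarb repeat ended 37 bases before its own. Pairs with 2 bases or 1 base between occurred in 0 of the 10 windows of these 6 genes. They lay in 0.268% and 0.222% of all windows, shares too small for 10 windows to be set against. A match describes letters in this window and is not evidence of binding.

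The first pair of synthesis genes, Aldh1a1 and Aldh1a2, is shown next. A promoter window of each holds the same element, and their signals lay on opposite sides of the background limit described below. Whether the element bears on either signal was not tested. Capitals mark ATGCAAAT, the octamer of POU factors, which was searched for on both strands after the windows had been read and lay in 1.74% of all windows. The table has 2 windows for Aldh1a1, and the octamer lay in the one printed and not in the other. In that window the opposite strand also holds the hexamer GGGTCA, a motif of 13.7% of windows, sharing 1 base with the end of the octamer. Both stretches are on the plus strand of GRCm38.p6, at chr19:20601868-20601967 for Aldh1a1 and chr9:71215689-71215788 for Aldh1a2.
Aldh1a1: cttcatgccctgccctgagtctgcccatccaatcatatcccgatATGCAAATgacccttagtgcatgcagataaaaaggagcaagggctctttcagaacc
Aldh1a2: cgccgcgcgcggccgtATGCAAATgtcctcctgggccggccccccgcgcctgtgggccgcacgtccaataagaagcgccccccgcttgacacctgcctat

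With 1 group the design holds no contrast, so the question asked of each gene was whether its signal stood above background. As a limit, each array had the 95th percentile of log2 signal over 78 receptor genes for smell, pheromones, trace amines and taste, which was 3.99, 4.10 and 4.07 log2 units on replicates 1, 2 and 3. Genes were tested with limma (one-sample, one-sided, Benjamini-Hochberg adjusted p below 0.05 over 18116 genes). Each limit was subtracted as a fixed value, so the p-values and 95% intervals leave out the uncertainty of the limit itself. Probe sets differ in brightness, so the level of one gene is not set against that of another. The deposited signals had array medians from 19.4 to 23.3. Markers of the labelled cell type were above background in 8 of 8 cases. The counts were 5 of 5 for neural precursors and 3 of 6 for neurons, against 58.3% of all genes tested. The astrocyte filament gene Gfap lay at 12.63 ± 0.12 log2 units (SD, n = 3, as for all levels below). The precursor markers Nes, Sox2 and Fabp7 lay at 10.45 ± 0.60, 11.42 ± 0.24 and 12.83 ± 0.02. Of the neuron markers, Snap25 and Stmn2 lay at 2.02 ± 0.50 and 1.93 ± 0.75 and did not pass. Syt1 passed at 7.24 ± 0.12 on 1 of 4 probe sets.

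Of the 9 retinoid genes, 3 were above background and 6 were not, where 58.3% of all genes tested were above it. Those above it were Rdh10 and Aldh1a1, which encode enzymes of consecutive steps of retinoic acid synthesis, and the binding protein gene Crabp1. No uptake or breakdown gene among the 9 passed. The median distance from the limit was -1.18 log2 units over the 9 genes and 1.76 over all genes tested. The same genes passed at an unadjusted p below 0.05.

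**Figure D1:**
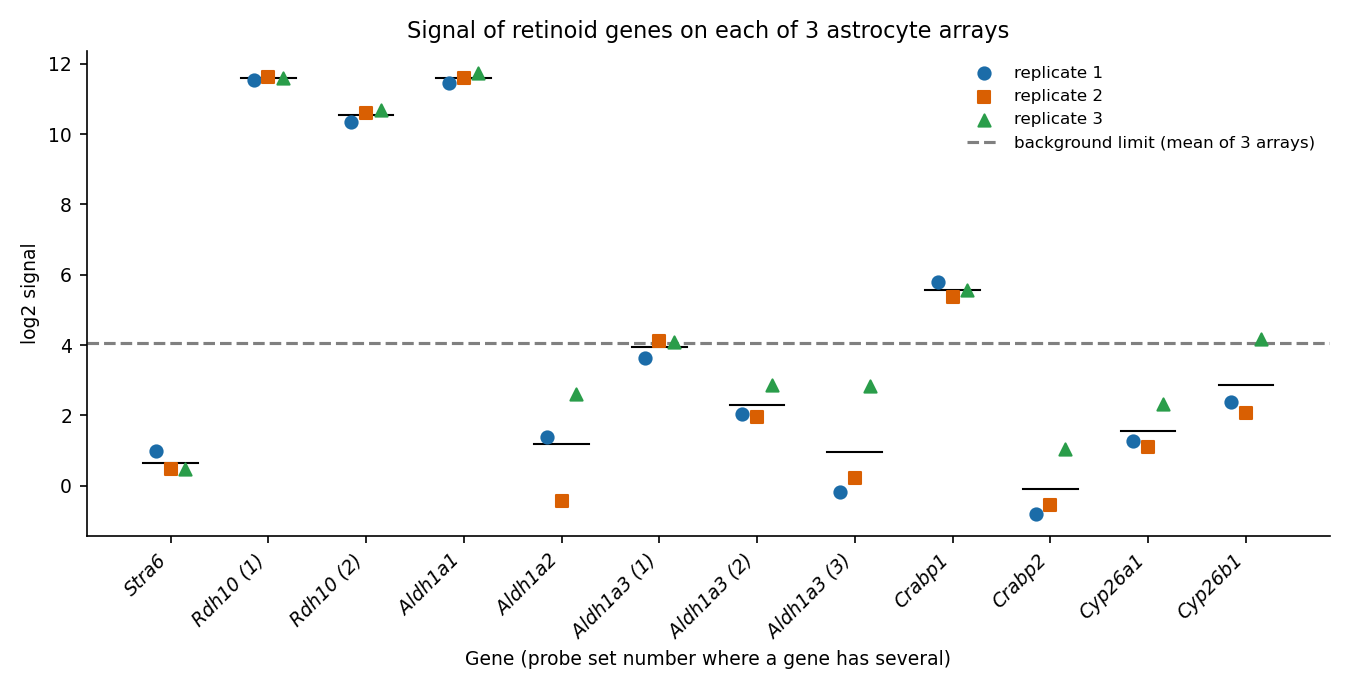
Log2 signal (vertical axis) of the 12 probe sets of the 9 retinoid genes on replicates 1 (circles), 2 (squares) and 3 (triangles), with short bars for means and a dashed line for the mean background limit of 4.05. Both Rdh10 probe sets, Aldh1a1 and Crabp1 lie above the line on all 3 arrays, while Crabp2 and Stra6 lie far below it.

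Uptake came first in the order of the pathway. Stra6 had log2 signals of 0.98, 0.47 and 0.49 on replicates 1, 2 and 3. All were far below the limits, at a mean of 0.64 ± 0.29 and a distance of -3.41 log2 units (95% interval of the fit -3.97 to -2.85; adjusted p = 1, limma). The receptor gene was thus not above background on its 1 probe set, which does not show that it was silent.

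Rdh10, whose enzyme starts the pathway by making retinal, had signals of 2954, 3170 and 3099 on the linear scale, or 11.53, 11.63 and 11.60 in log2 units. The 3 arrays lay close together, and all were far above the limit. The mean was 11.59 ± 0.05, which is 7.53 log2 units above the limit (95% interval 7.19 to 7.88; adjusted p = 3.85e-05, limma). A second probe set of the gene read 10.35, 10.59 and 10.70. It was dimmer than the first by 1.04 ± 0.14 log2 units, on every array, and was itself 6.50 log2 units above the limit for probe sets (adjusted p = 7.93e-05, limma). Rdh10 was thus above background on both probe sets, of which the dimmer is of the kind designed for a single transcript.

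The genes for the 3 retinal dehydrogenases split. Aldh1a1 had signals of 2827, 3077 and 3427, or 11.47, 11.59 and 11.74 log2 units. Every array was far above its limit, with replicate 3 highest, and the range between arrays was 0.28. Its mean of 11.60 ± 0.14 lay 7.55 log2 units above the limit (95% interval 7.17 to 7.92; adjusted p = 3.85e-05, limma).

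Aldh1a2, the enzyme gene known from meninges and early mesoderm, had log2 signals of 1.39, -0.43 and 2.61. These were scattered over 3.04 log2 units, all below the limit, with replicate 2 lowest. The mean was 1.19 ± 1.53, at -2.86 log2 units from the limit (95% interval -4.84 to -0.88; adjusted p = 1, limma). The distance was -2.03 without replicate 2 and -3.56 without replicate 3.

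Aldh1a3, known from the eye and the forebrain, lay at the limit itself. Its brightest probe set read 3.64, 4.11 and 4.08 log2 units. That was below the limit on replicate 1 and above it by less than 0.01 log2 units on the other 2. The distance was -0.11 log2 units with a 95% interval from -0.54 to 0.32 (adjusted p = 1, limma), so these arrays do not place the gene on either side. Its other 2 probe sets were also below the limit, with means of 2.29 ± 0.51 and 0.97 ± 1.64. None of its 3 probe sets passed.

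Binding protein genes also split. Crabp1, whose protein binds retinoic acid in the cytoplasm, had signals of 55.4, 41.03 and 47.5, or 5.79, 5.36 and 5.57 log2 units. Replicate 1 was highest and replicate 2 lowest, and all 3 were above the limit. The mean of 5.57 ± 0.22 lay 1.52 log2 units above it (95% interval 1.03 to 2.01; adjusted p = 0.00134, limma). Crabp1 rested on 1 probe set, whose design (_a_at) lets it bind more than 1 transcript, so it has no value when such probe sets are left out.

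Crabp2, whose protein hands retinoic acid to nuclear receptors, had log2 signals of -0.80, -0.56 and 1.05. Every value was far below the limit, and replicate 3 stood above the other 2. The mean was -0.10 ± 1.004, at -4.16 log2 units from the limit (95% interval -5.44 to -2.87; adjusted p = 1, limma). Its 1 probe set was not above background, which leaves its RNA level unknown below the limit.

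Neither breakdown gene was above background. Cyp26a1, the gene with the repeat printed above, had log2 signals of 1.27, 1.09 and 2.32, all below the limit. The mean was 1.56 ± 0.66, at -2.49 log2 units from the limit (95% interval -3.39 to -1.60; adjusted p = 1, limma).

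Cyp26b1, the family member known from brain and limb, read 2.38, 2.07 and 4.18. Replicates 1 and 2 lay well below the limit, and replicate 3 lay just above it, at a signal of 18.1 against a limit of 16.8. The mean of 2.88 ± 1.14 was -1.18 log2 units from the limit, and the 95% interval from -2.64 to 0.29 included it (adjusted p = 1, limma). The distance was -1.82 log2 units without replicate 3 and -0.75 without replicate 2.

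**Figure D2:**
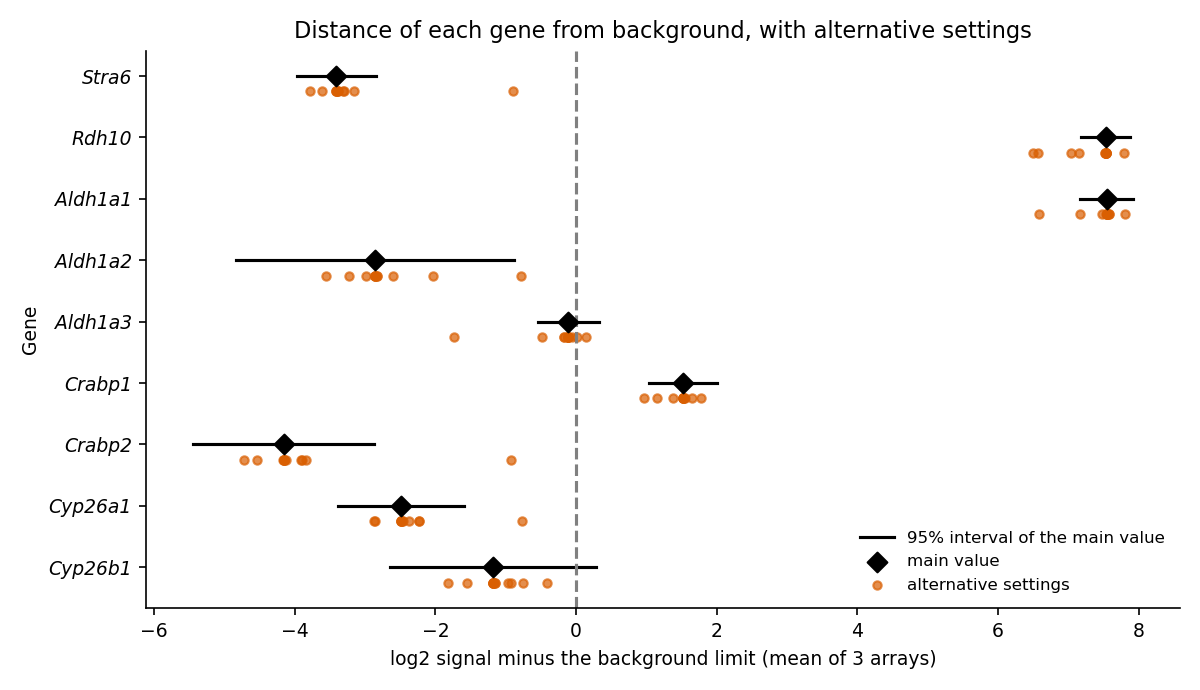
Distance of each retinoid gene from the background limit in log2 units (horizontal axis), as the mean of 3 arrays with its 95% interval (black) and under the alternative settings (orange points). Rdh10, Aldh1a1 and Crabp1 stay above 0 and Aldh1a3 straddles it. The isolated orange points of the low genes near -0.8 come from adding 16 to the signal before log2.

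Of the 12 probe sets, 4 were above background and 8 were not, where 52.3% of all 34871 probe sets tested were above it. The 7 genes with 1 probe set have no choice of the brightest behind them. Among them Aldh1a1 and Crabp1 passed, against 41.7% of the 9111 genes of that kind.

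The 3 arrays agreed most closely for the bright genes. The SD of Rdh10 was lower than that of all but 4.68% of genes above background, and the SDs of Aldh1a1 and Crabp1 were lower than their median of 0.24. Among genes not above background the median SD was 0.83, and the low retinoid genes ranged from 0.26 (Aldh1a3) to 1.53 (Aldh1a2). Replicate 3 was the highest array for 4 of the 6 low retinoid genes (Aldh1a2, Crabp2, Cyp26a1 and Cyp26b1), where it was highest for 35.4% of all genes not above background. Ordering among values this far below the limit was not tested.

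**Figure D3:**
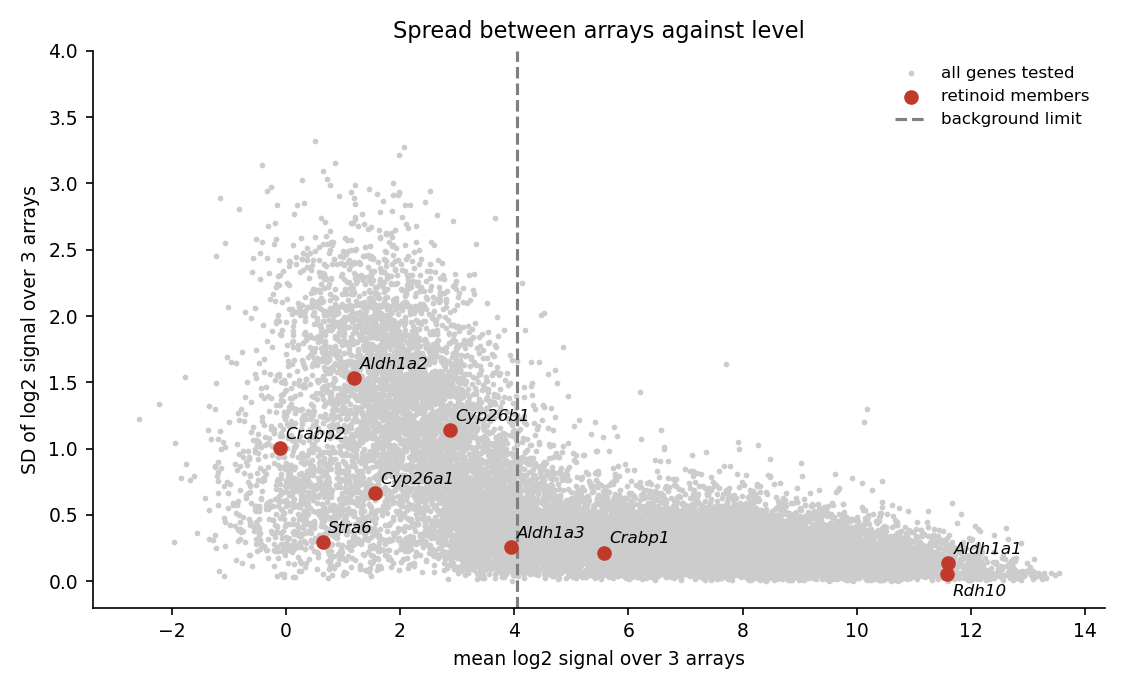
SD over 3 arrays (vertical axis) against mean log2 signal (horizontal axis) for all genes tested (grey) and the retinoid genes (red), with the background limit dashed. Rdh10 and Aldh1a1 sit at the bright end with SDs of 0.05 and 0.14, and Aldh1a2 shows the widest spread of the 9 genes, 1.53.

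Other genes of the pathway were taken from 5 lists, 66 genes in all, of which 56 were measured and 26 (46.4%) were above background. Their median distance from the limit was 0.05 log2 units. Over all genes tested 58.3% were above background, at a median of 1.76, and each list count below stands beside these values. Cyp26c1, also of the CYP26 family, is not analysed here.

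Of 11 measured genes for uptake, carriers and storage 3 were above background, with a list median of -1.19 log2 units from the limit. The blood carrier genes Rbp4 and Ttr lay at 2.86 ± 0.21 and 2.70 ± 0.94 and did not pass. Lrat, whose enzyme stores retinol as an ester, lay at 2.27 ± 0.28 and did not pass either. Dgat1, which can also esterify retinol, passed at 7.65 ± 0.24 on 1 of 2 probe sets. The other 2 that passed, named after their values were seen, were Rlbp1, a retinal carrier gene, at 5.58 ± 0.56 and Lrp1, a receptor for lipoprotein particles, at 9.20 ± 0.19. Rbp2, the intestinal retinol carrier gene, lay at 1.38 ± 0.93 and Rbp7 at 2.51 ± 1.64, neither above background. With the probe sets that may bind more than 1 transcript left out, 1 gene of this list was above background, Dgat1 lay 0.0058 log2 units above the limit and did not pass (adjusted p = 0.809, limma), and Rlbp1 had no value.

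Among 18 measured genes for retinol and retinal oxidoreductases and carotenoid cleavage 7 were above background (list median -0.15 log2 units from the limit). Dhrs3, whose enzyme returns retinal to retinol and so opposes RDH10, had log2 signals of 5.00, 3.91 and 3.09, above the limit on replicate 1 and below it on the other 2. Its mean of 4.00 ± 0.96 did not pass (adjusted p = 0.858, limma). Rdh11 passed at 7.53 ± 0.47, and Rdh5, the 11-cis retinol dehydrogenase gene, passed at 10.17 ± 0.20. Rdh1 and Adh1 lay at 1.56 ± 2.03 and 3.15 ± 1.28 and did not pass. Adh7 passed at 4.70 ± 0.28 on 1 of its 2 probe sets (limma adjusted p = 0.0283), and with the median of its probe sets it lay at -1.15 from the limit.

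Of the receptor genes 3 of 6 were above background, where 58.3% of all genes tested were. Rarg lay at 6.06, 5.81 and 5.84 log2 units on the 3 arrays, 1.85 above the limit (adjusted p = 0.000454, limma). It passed on 1 of its 2 probe sets, both of the design that may bind more than 1 transcript, so it has no value without them. Rara read 1.99, 0.73 and 0.96, all far below the limit. Rarb read 3.69, 4.18 and 3.05, which put replicate 2 above the limit and the other 2 below it, at a distance of -0.41 (95% interval -1.20 to 0.38). Each of Rara and Rarb had 1 probe set.

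Among the partner receptors, Rxra passed at 6.93 ± 0.48 and Rxrb at 8.45 ± 0.80, and Rxrg lay at 0.91 ± 0.55 and did not pass. The whole list of receptors and cofactors had 9 of 12 measured genes above background and a median of 2.57 log2 units above the limit. It includes Fabp5, a fatty acid carrier that can also bind retinoic acid, at 11.43 ± 0.10, and Ppard, a nuclear receptor, at 6.32 ± 0.15, both named after their values were seen. Ppard passed on 1 of 2 probe sets and lay at -0.59 from the limit with their median.

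Genes known to respond to retinoic acid were above background in 7 of 14 measured cases (50%), near the 58.3% of all genes tested. The list median was 0.28 log2 units above the limit. Besides Rarb, Hoxb1 at 3.29 ± 0.27 did not pass. Stra8, a gene of meiotic entry, lay on both sides of the limit with log2 signals of 5.32, 3.59 and 1.72. Tgm2, a transglutaminase, passed at 6.47 ± 0.68 on 5 of 6 probe sets, and Rarres2, which encodes chemerin, at 4.85 ± 0.34 on 1 of 3. Without probe sets that may bind more than 1 transcript Tgm2 had no value and Rarres2 lay at -1.14 from the limit. Meis1, a homeobox gene, passed at 7.73 ± 0.31 on 2 of 3 probe sets, 3.68 log2 units above the limit. Without probe sets that may bind more than 1 transcript Meis1 lay 1.31 above it (adjusted p = 0.0198, limma). Many of these genes answer to other signals as well. The list of other breakdown enzymes had 0 of 2 measured genes above background (limma, and 0 at an unadjusted p below 0.05), with Cyp2s1 at 3.28 ± 0.39 and Ugt2b34 at 2.35 ± 0.97.

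**Figure D4:**
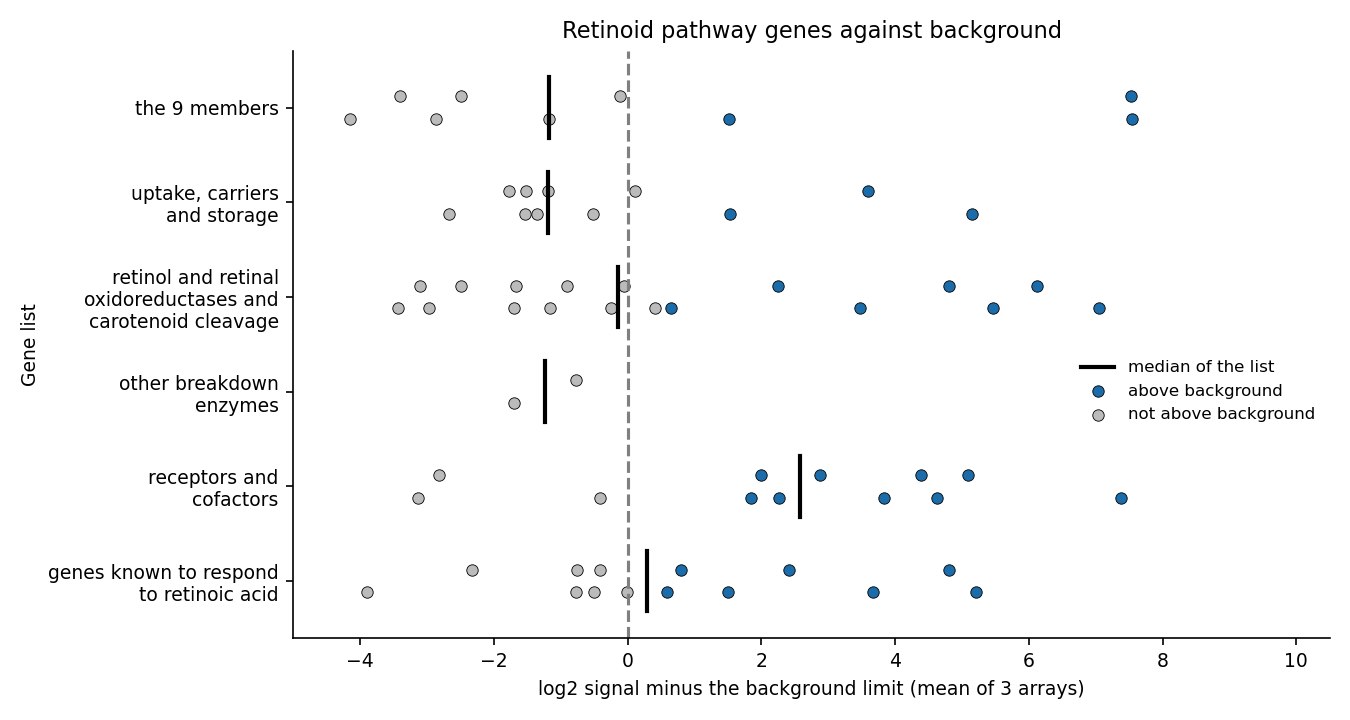
Distance from the background limit in log2 units (horizontal axis) of the 9 retinoid genes and of 5 lists of other pathway genes, with blue points above background, grey points not above it and a black bar at each list's median. The receptor and cofactor list has its median at 2.57, and the 9 retinoid genes have theirs at -1.18.

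The genes whose windows hold a repeat with 5 bases between hexamers numbered 31, and 11 of them were measured. Of these 1 was above background, the biliverdin reductase gene Blvrb at 7.82 ± 0.22 (named after its value was seen). Over all genes tested the share above background was 58.3%, and 11 genes are few to set beside it. Windows with the octamer belonged to 240 measured genes, of which 55.4% were above background, near that share. Both counts are descriptions of these arrays.

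Markers of other cells known for these genes were read on the same arrays, where 58.3% of all genes tested were above background. For meningeal fibroblasts, known for Aldh1a2 and Crabp2, 3 of 10 were above background, with Col1a1 and Col1a2 at 2.85 ± 0.50 and 3.72 ± 0.75 and not above it and the transcription factor gene Foxc1 at 6.12 ± 0.34 and above it. The other 2 above it, named after their values were seen, were the transcription factor gene Twist1 at 7.58 ± 0.22 and Ptgds, a prostaglandin synthase gene, at 9.57 ± 0.11 on 2 of 2 probe sets. The summed linear signal of that list ran from 957 to 1167 over the arrays, with Ptgds at 696 to 812 of it. For dopamine neurons, known for Aldh1a1, 1 of 6 was above background, with Th, Slc6a3 and Slc18a2 at 3.02 ± 1.26, 3.04 ± 1.34 and 3.58 ± 1.64, none above it. Slc18a2 exceeded the array limit on 2 of 3 arrays, Slc6a3 on 1 and Th on 0. The marker above background was Nr4a2, named after its value was seen, at 5.38 ± 0.19 on 2 of 6 probe sets. The summed signal of the list ran from 84.5 to 135. Because probe sets differ in brightness, neither sum measures an amount of a cell type or a gene's share of RNA. Endothelial and microglial lists each had 1 of 4 genes above background and the pluripotent list 0 of 4 (limma, and 0 at an unadjusted p below 0.05). In a bulk sample fewer cells of a type and less RNA per cell cannot be told apart, and the part that minor cell types play in these signals was not tested.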

How the data were processed

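The authors deposited linear intensities, 1 for each probe set on each array, made with GCOS 1.4 per the submitters' processing notes. How GCOS was set, its scaling target, its detection calls and a genome build are not stated in the labels or files. Array images were not used, so saturation could not be examined. All 45101 deposited intensities per array were above 0, and log2 was taken with no pseudocount. Their means after trimming 2% at each end ran from 131 to 154. Platform annotation named 1 gene for 34958 probe sets, several for 932 (left out) and none for 9211, and the GRCm38.p6 gene table changed 0 symbols. It lacked the identifiers of 204 probe sets, which kept the platform's symbol. Tests used limma 3.58.1 in R 4.3.3 and were tested on simulated data. A fit over all single-gene probe sets used the limit from the 87 receptor probe sets. Named genes were all 9 retinoid genes, the 6 receptor genes and the first 6 measured genes of each other pathway list. Markers were named from the first 3 of a list, and some marker lists are given as counts only. Genes outside this rule are marked as named after their values were seen. The gene members and lists were chosen with earlier results of these data known. Alternatives changed the probe set rule, the limit, the pseudocount, the scaling, the filter on low values, the variance model and the replicates.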

Additional observations from a re-analysis of the deposited data

How the results depend on the processing

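Each of 17 results was recomputed under up to 13 alternatives. Of 214 values, 210 kept their direction and side of the threshold, or stayed within 1.5 times for counts. Counts within that range still moved. The list of genes known to respond to retinoic acid fell from 7 to 5 with the median of probe sets and with the limit at the 99th percentile. It also fell to 5 without replicate 1 and without probe sets that may bind more than 1 transcript. The oxidoreductase list fell from 7 to 5 under both probe set rules and rose to 8 with the limit at the 90th percentile. Rdh10 and Aldh1a1 were above background under all 13, from 6.49 to 7.79 and from 6.58 to 7.80 log2 units above the limit. With the limit at the 90th and 99th percentiles Aldh1a1 lay 7.80 and 7.17 log2 units above it. Crabp1 was above it under the 12 that could be run, from 0.97 to 1.78 (adjusted p 8.20e-05 to 0.0132, limma). With the _s_at, _x_at and _a_at probe sets left out, which may bind more than 1 transcript, Crabp1 had no value, 2 of the retinoid genes and 2 of their probe sets were above background, and the uptake, carrier and storage list had 1 gene above it. The fewer probe sets measured account for Crabp1. Aldh1a3 turned to 0.15 log2 units above the limit with the limit at the 90th percentile and to 0.0083 without replicate 1 (from -0.17 to 0.0083 over the 3 fits that leave out a replicate), passing in neither (adjusted p 0.312 and 0.760; 0.312 to 1 over its alternatives), and lay at -1.74 with the median of its probe sets. The other 5 low genes passed under none. The filter on low genes removed Aldh1a2, Crabp2, Cyp26a1 and Stra6 from the test. Scaling to a common trimmed mean moves signal and limit together and changes no distance, so its values are among the 210 by construction. No paired analysis was possible because all samples belong to 1 group. With 3 arrays the 95% interval of Cyp26b1 spans the limit, so a low signal of that gene could go unseen.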

Other observations

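Markers of the retinal pigment epithelium, only some of which are genes of the visual retinoid cycle, were also read. Of the 7 epithelium markers 3 were above background, against 58.3% of all genes tested, and the count is not one of visual cycle genes. Rpe65, whose enzyme makes 11-cis retinol in the eye, had log2 signals of 5.96, 6.15 and 6.11, a mean of 6.07 ± 0.10 and a distance of 2.02 log2 units above the limit on its 1 probe set (adjusted p = 0.000205, limma). The carrier gene Rlbp1 was above the limit on each array at 4.96, 6.07 and 5.71 log2 units, on 1 probe set whose design (_a_at) lets it bind more than 1 transcript, and is also known from glia. Mitf, a transcription factor gene of pigment cells, passed at 7.90 ± 0.31 on 1 of 2 probe sets. Best1, Tyr and Dct, which are needed for the channel and the pigment of that epithelium, lay at 0.98 ± 0.45, 3.82 ± 0.53 and 3.32 ± 0.33 and did not pass, and neither did Lrat. Rlbp1, Mitf, Dct and Lrat in this paragraph were named after their values were seen.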
